A study of Mus musculus with 12 samples.

Results

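The expression profile of the unaltered adult mouse cerebellum was described from the 6 arrays whose source name is wild type, out of 12 arrays in the series. Total RNA from the cerebellum of each animal was hybridised to 1 Affymetrix whole-transcript array, an array whose probes lie along the whole length of each transcript. The 6 wild-type animals were 3 males and 3 females, here called male 1 to 3 and female 1 to 3, and the numbers only name an animal. The other 6 arrays came from 3 male and 3 female mice lacking Ciz1 (Ciz1-/-), and they serve as a second set of animals in which spread, likeness between genes and sex differences were measured again. No gene was tested between genotypes. The labels conflict on the controls: their genotype field has Ciz1+/-, but Ciz1+/+ stands in the protocol for RNA extraction and wild type in the source name. Age is given as 10 months in the protocol and as 6 to 10 months in the design text. Neither the strain nor the way the Ciz1 allele was made is given in the sources used here, and no treatment is named. All values are log2 of the deposited intensity, so a difference of 1 is a factor of 2 in brightness.

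The cerebellar cortex is built around the Purkinje cell, a large inhibitory neuron that carries the only output of the cortex to the cerebellar nuclei. Granule cells, the most numerous neurons of the brain, excite Purkinje cells through parallel fibres. Basket and stellate interneurons inhibit Purkinje cells, and Golgi interneurons inhibit granule cells. Bergmann glia are the astrocytes that wrap Purkinje dendrites, and oligodendrocytes myelinate the axons of the white matter. The choroid plexus of the fourth ventricle, which secretes cerebrospinal fluid, lies against the underside of the cerebellum and is not part of it.

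A total of 22180 genes had a row of the array to themselves. As a measure of the level that a silent gene gives, 1405 genes for olfactory, vomeronasal and trace-amine receptors, which belong to the nose, had a median of 4.27, and their 95th percentile, 6.48, was used as background. Above it lay 13105 genes, 59.1% of all. Genes above background had a median SD of 0.087 over the 6 animals, and any single SD from 6 arrays carries a 95% interval from 0.624 to 2.45 times its value. Between any 2 of the 6 arrays the log2 differences of these genes had an SD of 0.144 to 0.191, and array medians over all genes lay between 6.96 and 6.99. Ciz1 itself, as a check of the labels, read 8.70 to 8.90 in the 6 wild-type arrays and 6.82 to 7.31 in the 6 knockout arrays. No array was a copy of another: any pair shared at most 3 identical gene values. The labels give no scan date, slide or extraction batch. Brightness ranks genes by probe signal, and since probes of different genes respond differently it is not a ranking of RNA molecules.

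**Figure D1:**
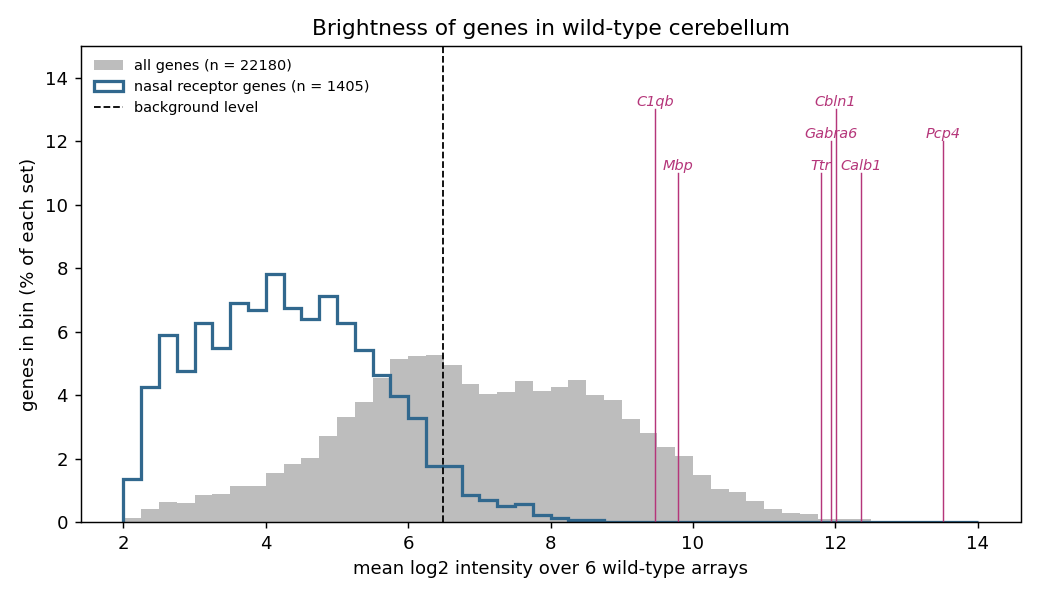
Distribution of the mean log2 intensity over the 6 wild-type arrays for all 22180 genes (grey) and for the 1405 nasal receptor genes (blue outline), as percent of each set per bin, with the background level of 6.48 dashed. Named lines give the mean of single genes: Pcp4, Calb1, Cbln1, Gabra6 and Ttr lie in the bright tail, and C1qb and Mbp lie lower but above background.

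Markers of the labelled tissue were bright. Gabra6, the GABA-A receptor subunit that marks mature granule cells, read 11.97, 12.12 and 11.71 in males 1 to 3 and 11.92, 11.91 and 11.97 in females 1 to 3, a mean of 11.93 ± 0.13 (SD, n = 6). Cbln1, the granule cell protein that bridges parallel fibres to Purkinje dendrites, read 12.031, 12.004 and 11.996 in males and 12.0002, 11.962 and 12.028 in females, a mean of 12.003 ± 0.025 (SD, n = 6). Both were brighter than more than 99% of genes, at percentiles 99.61 and 99.63. Mbp, the myelin basic protein of oligodendrocytes, had values of 9.69, 9.84 and 9.71 in males and 9.94, 9.69 and 9.86 in females, a mean of 9.79 ± 0.11 (SD, n = 6). In all of these the sexes overlapped. Pcp2, the Purkinje cell marker, has no level here, because its row also names Pet100 and rows with several genes were not used.

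Granule cells supplied the cell type list with the highest median. All 20 granule cell genes measured were above background, and all 20 were also above 8.45, the level exceeded by the brightest 5545 genes; their median was 11.02 against 6.97 over all genes. Chn2, which encodes the Rac regulator beta-chimaerin, led them at 12.64 ± 0.049 (SD, n = 6), followed by Cbln3, the partner of Cbln1, at 12.27 ± 0.051. Of 18 Purkinje cell genes measured, 18 were above background and 15 above 8.45, with a median of 10.07. Pcp4, a calmodulin-binding protein, was the brightest at 13.52 ± 0.025, before the calcium buffer Calb1 at 12.36 ± 0.090 and Car8, which binds the IP3 receptor, at 12.17 ± 0.048. The transcription factor Foxp2 was dimmer at 6.89 ± 0.16, close to background.

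Inhibitory interneurons and the deep nuclei gave lower signals. All 15 interneuron genes were above background, with a median of 8.71 and 10 of them above 8.45. The calcium buffer Pvalb, which Purkinje cells also express, stood at 10.43 ± 0.10 and the receptor kinase Kit at 10.22 ± 0.061. Somatostatin, Sst, was among the dimmest at 6.94 ± 0.22. Of 5 genes for neurons of the cerebellar nuclei, 3 were above background and none above 8.45. The brightest, Slc17a6, the vesicular glutamate transporter of these neurons, read 7.07, 7.43 and 7.81 in males and 7.55, 7.40 and 7.76 in females. In bulk tissue fewer cells of a type and less RNA per cell cannot be told apart.

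Among glia the astrocyte list was the brightest and the precursor list the dimmest. The 19 Bergmann glia and astrocyte genes were all above background, with a median of 10.45; the matricellular protein Sparcl1 stood at 12.87 ± 0.057 and the glutamate transporter Slc1a3 at 11.60 ± 0.063. All 19 oligodendrocyte genes were above background, with a median of 9.13 and Gjc3, a connexin, highest at 10.40 ± 0.075. The 6 precursor genes had a median of 7.32. Microglia were represented by 13 of 16 genes above background and by the complement subunit C1qb at 9.47 ± 0.13. Among 18 vascular genes 17 were above background, led by the pericyte gene Rgs5 at 10.54 ± 0.070, and among 14 meningeal genes 13 were, led by the prostaglandin D synthase Ptgds at 12.86 ± 0.069. Ptgds does not stand for the meningeal list, whose median was 8.32 and whose next brightest gene, Dcn, stood at 9.15. Per array, the mean of each of these lists moved by no more than 0.24 between the lowest and the highest animal, the width seen for microglia.

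Most lists for tissue outside the cerebellum had a smaller share of genes above background than the 59.1% found over all genes. None of 14 Hox genes, which are expressed caudal to the cerebellum, and none of 5 germ cell genes exceeded it. Of 9 forebrain neuron genes 4 did, the brightest being the dopamine receptor Drd2 at 6.67 ± 0.19. Of 10 monoaminergic, cholinergic and hypothalamic genes 3 exceeded it, led by the dopamine-synthesis enzyme Th at 7.88 ± 0.26, which some Purkinje cells of rodents are known to express. Liver was represented by 2 of 10 genes, muscle by 3 of 8 and pancreas by 1 of 5. Epidermis was the exception, with 3 of 5 genes above background and a median of 7.14 against 6.97 over all genes. Passing the threshold is thus no sign that a tissue was present. Of 3 blood genes with a row of their own 1 exceeded background, and the haemoglobin rows name several genes and were not used. By construction, 71 of the 1405 nasal receptor genes also lie above the threshold.

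Mitochondrially encoded proteins took 9 of the 30 brightest places, and nuclear subunits of oxidative phosphorylation and glycolytic enzymes another 2 each. ND4, a subunit of respiratory complex I, ranked first at 13.86 ± 0.029 (SD, n = 6), and COX1, a subunit of cytochrome oxidase, read 13.65, 13.61 and 13.52 in males and 13.57, 13.59 and 13.63 in females. ND6, whose gene lies on the opposite strand of the mitochondrial genome from the other complex I genes, was the only one of the 10 mitochondrial proteins measured outside the 30, at 8.22 ± 0.22. The nuclear-encoded ATP synthase subunits Atp5md at 12.94 and Atp5b at 12.80, and the glycolytic enzymes Gapdh at 13.07 ± 0.027 and Aldoc at 13.02 ± 0.074 were also there. Aldoc is the zebrin antigen of striped Purkinje cell bands and is also made by astrocytes.

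Neuronal genes of the 30 were Pcp4, the vesicle fusion protein Snap25 at 13.35 ± 0.038, the calcium sensor Vsnl1 at 13.16 ± 0.051 and the membrane glycoprotein Gpm6a at 12.97 ± 0.050. Glial or barrier genes were Sparcl1 at 12.87, Ptgds at 12.86 and Ndrg2 at 12.76. The ribosomal proteins Rps6 at 13.11 and Rpl21 at 12.76, the helicase Eif4a1 at 13.18, the reticulon Rtn3 at 12.79 and the G protein subunit Gnb1 at 12.71 made up the other protein-coding genes. Rn7sk, the small nuclear RNA that holds the elongation factor P-TEFb inactive, ranked second at 13.83 ± 0.042, and Malat1, a nuclear long non-coding RNA, stood at 13.17 ± 0.038. A microRNA row also belonged to the 30, and Rpph1, the RNA of RNase P, was last of the 30 at 12.650, and the first gene outside, Chn2, stood at 12.645.

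Beyond the single brightest genes, the lists for shared neuronal and metabolic functions were described in the same way. Synaptic vesicle release had 17 of 18 genes above background and a median of 10.75, and glycolysis 12 of 12 with a median of 10.71. Tubulin, actin, neurofilament and microtubule protein genes numbered 19 of 19 with a median of 10.13. Nuclear subunits of oxidative phosphorylation had 73 of 80 above background and a median of 9.02, and cytosolic ribosomal proteins 55 of 67 and a median of 8.02. Of 15 neuropeptide and processing genes 10 were above background, led by the granule protein Chgb at 11.56 ± 0.045 and the enkephalin precursor Penk at 10.33 ± 0.16. Of 3 genes for unipolar brush cells, excitatory interneurons of the vestibular cerebellum, 2 were above background, and Calb2, the calcium buffer calretinin that granule cells also make, stood at 11.67. Over all 22180 genes 59.1% were above background and the median was 6.97.

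The brightest genes were also steady. SDs of the 30 ranged from 0.025 to 0.22 with a median of 0.052, and 29 of the 30 were also among the 30 brightest in the knockout arrays. Gm26504, a predicted gene that RefSeq types as a small nucleolar RNA and that is named after its values were seen, had the widest spread of the 30, with 12.71 in male 2 and 13.15 to 13.32 in the other animals. Among the brightest 5545 genes, the smallest spread belonged to Cacnb4, a calcium channel subunit whose loss causes ataxia in mice, with 11.04 ± 0.0065 and 1.01-fold between the lowest and highest animal. The next 9 had SDs up to 0.018: Ubr3, Slc39a9, Zdhhc14, Birc6, Ndfip2, Hdlbp, Zzz3, Axl and Nptn. Their knockout SDs were not as small; Cacnb4 had 0.032 there.

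**Figure D2:**
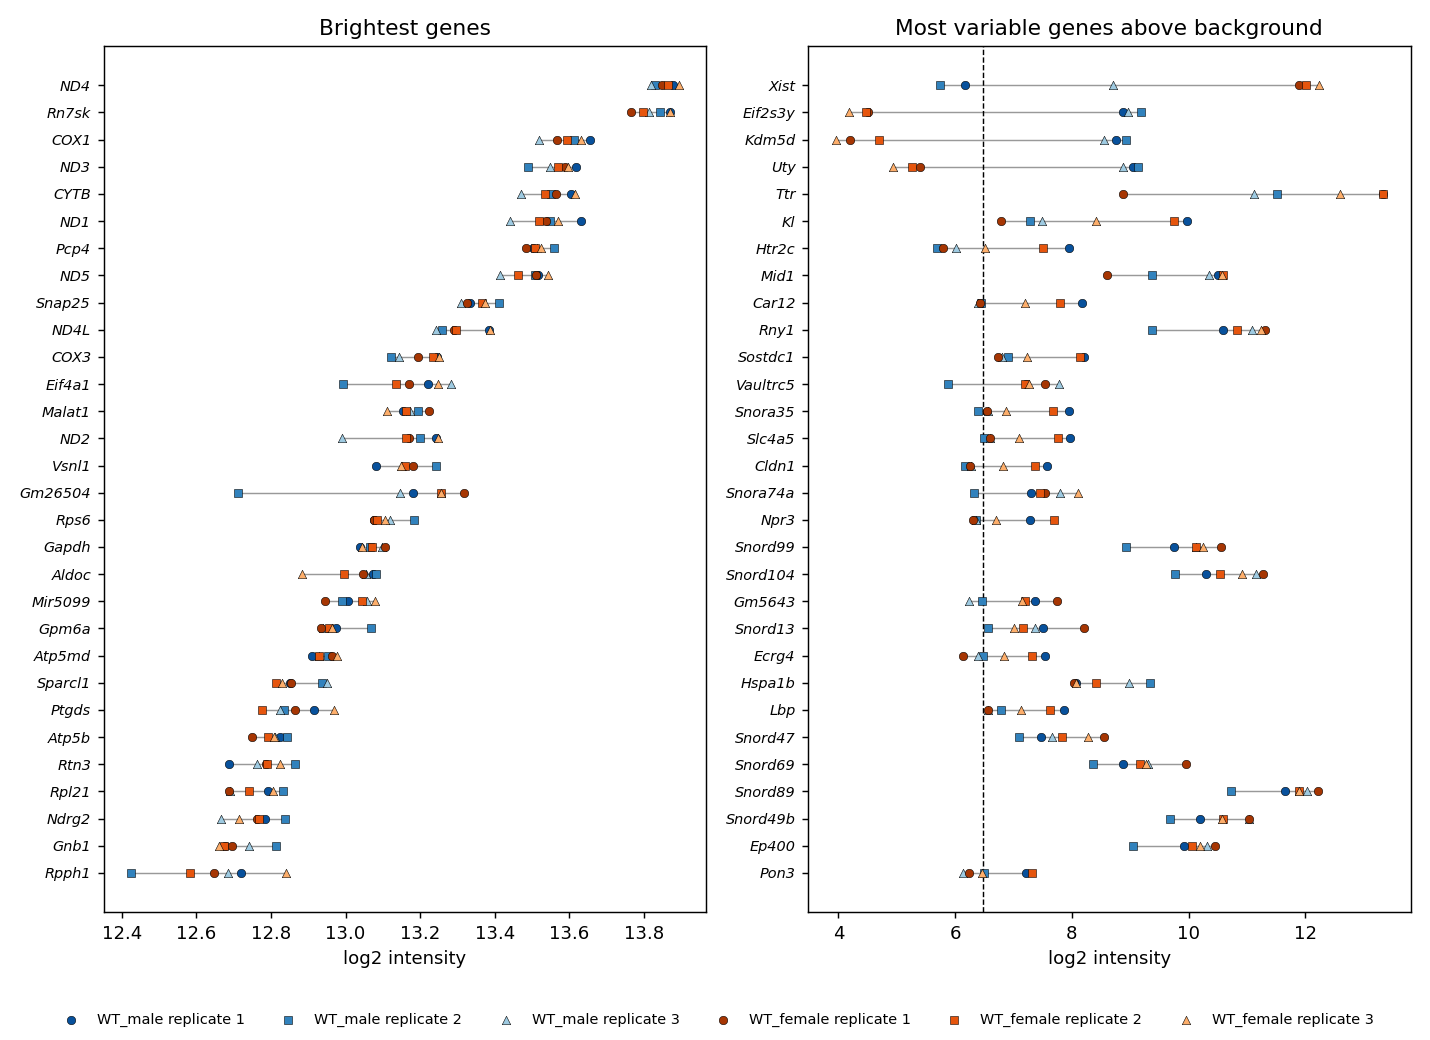
Log2 intensity of the 30 brightest genes (left) and of the 30 genes with the largest SD among those above background (right), 1 point per wild-type animal and a line from the lowest to the highest; the dashed line is the background of 6.48. On the left the 6 points of most genes nearly coincide, and on the right Xist and the Y-linked genes split by sex while Ttr and Kl do not.

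Spread between animals was small for most genes and large for few. Of the genes above background, 38.1% kept all 6 animals within 0.2 of each other, and 57 genes (0.435%) spanned more than 1. Background was judged by the mean over the same 6 animals, so a dim gene can pass through its highest animals alone. An SD of at least 0.3 was found for 86 genes, 0.656% of those above background. By the lists used here, with each gene counted once, these were 28 small RNAs, 12 choroid plexus genes, 4 sex-linked genes and 3 interferon-response genes. There were also 2 chaperones, 2 immediate early genes and 1 glucocorticoid-responsive gene. A further 5 genes hold a small nucleolar RNA gene within their RefSeq bounds, and 29 were others. The small RNAs include 21 of the 55 small nucleolar RNAs above background. How many genes above background hold a small nucleolar RNA gene was not counted, so no excess can be read from the 5. In the 6 knockout arrays 143 genes reached the same SD, and 45 were shared, which is 52.3% of the wild-type genes and 31.5% of the knockout genes. The last of the 30 most variable genes had an SD of 0.501 and the first one outside 0.480.

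Genes of the choroid plexus had the widest spread of any list without sex-linked members. Ttr, the thyroxine carrier transthyretin, read 13.33, 11.51 and 11.13 in males 1 to 3 and 8.88, 13.32 and 12.60 in females 1 to 3, an SD of 1.70 (95% interval 1.06 to 4.16) and 21.9-fold from lowest to highest. Male 1 and female 2 were highest, female 1 lowest, and the sexes overlapped. Kl, the anti-ageing hormone and FGF coreceptor klotho, followed with 9.97, 7.28 and 7.49 in males and 6.79, 9.74 and 8.42 in females, an SD of 1.33 and 9.04-fold. The BMP antagonist Sostdc1 (SD 0.67), the bicarbonate transporter Slc4a5 (SD 0.64) and the tight junction protein Cldn1 (SD 0.61) showed the same order of animals at the top.

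All 19 measured members of the choroid plexus list can be accounted for. Male 1 and female 2 were the 2 highest animals for 17 of the 19. The same held for 3.88% of all genes above background, a set that leaves out the dimmer members of the list. The exceptions among the 19 were the organic anion transporter Slco1a5 and the protease-inhibitor family member Wfdc2, which lay below background at 5.16 and 5.92. Above background were 13 members, and 12 of the 13 had an SD of at least 0.3, the exception being the water channel Aqp1 with 0.26. F5, coagulation factor V, had a mean of 6.33, below background, yet read 7.83 in male 1 and 7.37 in female 2 against 5.34 to 6.23 elsewhere. The list mean was 7.63, 6.58 and 6.61 in males and 6.37, 7.49 and 6.95 in females, a width of 1.26, while the means of the granule, Purkinje and Bergmann glia lists moved by 0.076 to 0.11. By the median of members in place of the mean the choroid plexus width was 1.10 and those of the 3 other lists 0.13 to 0.42, the last for Bergmann glia. Without male 1, 9 of the 13 members above background kept an SD of at least 0.3. In the knockout arrays 9 of the 12 reached that SD, Ttr and Kl again with the largest at 2.11 and 1.11.

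**Figure D3:**
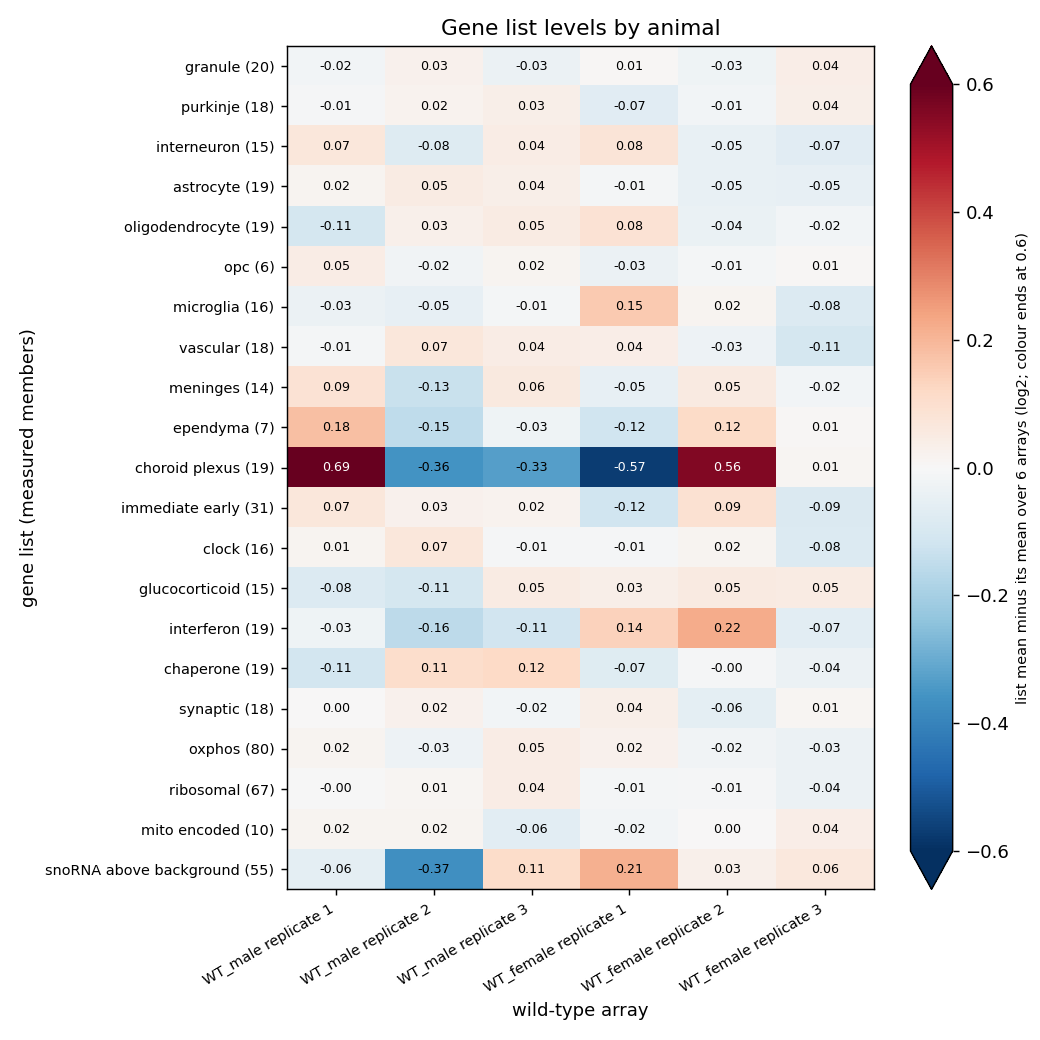
Mean log2 intensity of each gene list in each wild-type array minus its mean over the 6 arrays, with the number of measured members in brackets; red is higher and blue lower, and the colour scale ends at 0.6. The choroid plexus row runs from -0.57 to 0.69 and the small nucleolar RNA row dips to -0.37 in WT_male replicate 2, while rows for neurons and most glia stay near 0.

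Markers of neighbouring structures were read beside this result. The ependymal list, cells that line the ventricle, had 1 of 7 genes above background and list means of 5.85 to 6.18, highest in male 1 and female 2 as well. The meningeal list, with 13 of 14 genes above background, had means of 8.12 to 8.34, highest in male 1. The part of either cell type in the spread of choroid plexus genes was not tested. Other genes of the 30 most variable were also highest in male 1 and female 2: the carbonic anhydrase Car12 (SD 0.78), the natriuretic peptide clearance receptor Npr3 (SD 0.58), the secreted augurin Ecrg4 (SD 0.55), the lipopolysaccharide-binding protein Lbp (SD 0.55) and the paraoxonase Pon3 (SD 0.50). Counting all 86 wide genes, 28 had these 2 animals on top, 12 of them choroid plexus list members. Htr2c, a serotonin receptor that choroid plexus epithelium expresses strongly, read 7.95, 5.68 and 6.01 in males and 5.79, 7.51 and 6.51 in females. Its mean of 6.58 passed the background of 6.48 only through its high animals. Its place among the most variable genes is therefore partly fixed by that filter. The small nucleolar RNA gene Snora35, named here after its values were seen, lies within Htr2c and had nearly the same pattern, 7.95, 6.39 and 6.56 in males and 6.54, 7.68 and 6.87 in females, and whether the rows read separate transcripts was not tested.

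Among the 86 genes above background with an SD of at least 0.3, those whose 6 values ran most like Ttr were ranked by Pearson likeness. Narrower genes were not ranked, and the ranking is a description over 6 arrays that share animals and normalization. Gabra2, a GABA-A receptor subunit of neurons, came first at 0.966, with 8.85, 8.54 and 8.29 in males and 8.10, 8.82 and 8.76 in females. Its likeness to Ttr in the 6 knockout arrays was 0.24. Baiap2l1 (0.925), Ecrg4 (0.909), Kl (0.895), Slit2 (0.869), Lbp (0.855) and the list members Trpv4 (0.896) and Folr1 (0.854) followed, with 0.69 to 0.99 in the knockout arrays. Inmt (0.899), an N-methyltransferase, and Mid1 (0.882) had 0.147 and 0.07 there. Mid1, a ubiquitin ligase, read 10.49, 9.38 and 10.35 in males and 8.59, 10.59 and 10.56 in females, an SD of 0.82 with female 1 and male 2 apart from the other 4. Its X-chromosome neighbour Erdr1 had its lowest values in the same animals, 11.17 and 11.52, against 11.67 to 12.23. Mid1 also holds a small nucleolar RNA gene within its RefSeq bounds.

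**Figure D4:**
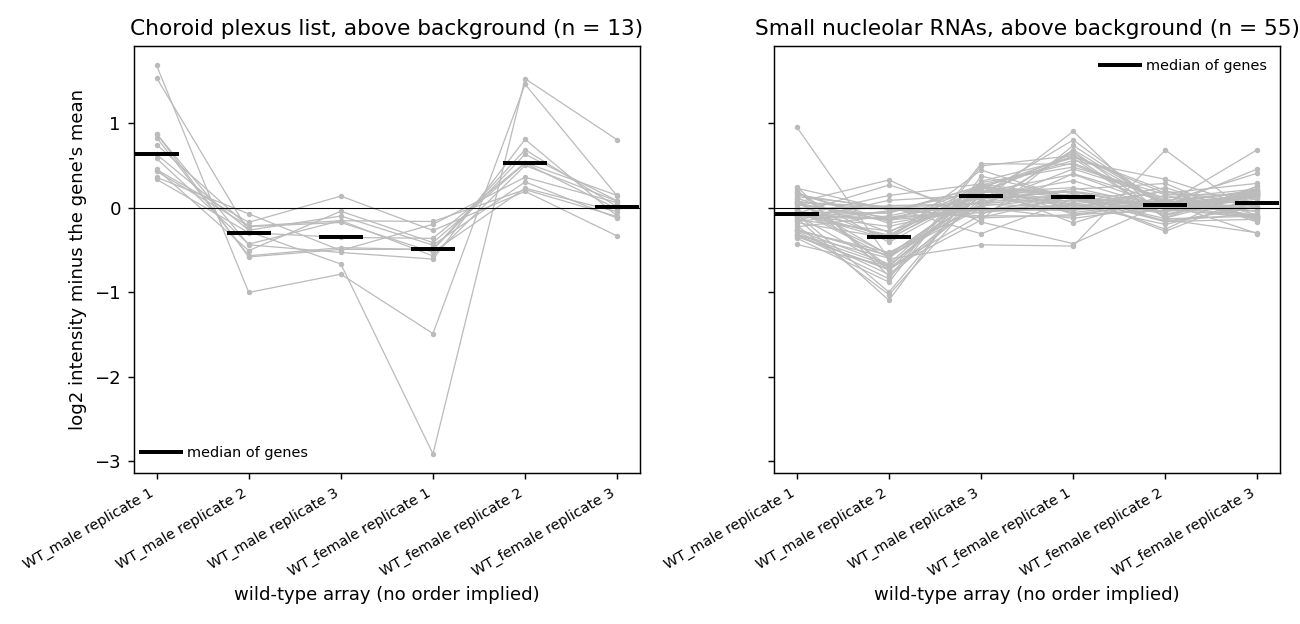
Log2 intensity minus each gene's own mean in the 6 wild-type arrays for the 13 choroid plexus genes (left) and the 55 small nucleolar RNAs (right) above background; grey lines join the values of 1 gene and black bars are the medians of genes. Choroid plexus genes peak in WT_male replicate 1 and WT_female replicate 2, and small nucleolar RNAs dip in WT_male replicate 2.

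Small RNAs formed a different pattern. Small nucleolar RNAs guide chemical modification of ribosomal RNA, and 55 of the 73 measured were above background, with a median SD of 0.23 against 0.087 for all genes above background. Of the 55, 37 were lowest in male 2, as were 11.5% of genes above background, and 21 had an SD of at least 0.3. Their mean was 8.26, 7.95 and 8.43 in males and 8.53, 8.35 and 8.38 in females. Without male 2 the number with that SD was 14; leaving out any other animal gave 21 to 24. In the knockout arrays it was 5, and means per array there lay between 8.29 and 8.50. An SD larger in wild type than in knockout was found for 42 of the 55, and for 47.7% of genes above background. Without male 2 the median wild-type SD of the 55 was 0.172, against 0.181 over the 6 knockout arrays. The list was added after the values were seen, so it is not free of selection by wild-type spread. RNA quality values are not part of the labels, and the part of extraction or labelling of short RNA was not tested.

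Single members show the size of the dip. Rny1, a Y RNA bound by the Ro protein, read 10.58, 9.37 and 11.08 in males and 11.30, 10.83 and 11.24 in females, and Rny3 9.55 in male 2 against 9.88 to 10.73. Vaultrc5, an RNA of the vault particle, read 5.88 in male 2, below background, and 7.20 to 7.77 elsewhere. Of the small nucleolar RNAs, named after their values were seen, Snord104 was 9.77 in male 2 and 10.29 to 11.27 in the other animals, and Snord99 was 8.92 against 9.74 to 10.56. Ep400, a chromatin remodeller with a small nucleolar RNA gene inside its bounds, read 9.91, 9.04 and 10.31 in males and 10.46, 10.06 and 10.19 in females. In each of these male 2 was the lowest animal. The list of cytosolic ribosomal proteins, by contrast, moved by 0.082 over the 6 animals and was not lowest in male 2.

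The inducible heat shock proteins were high in 2 animals. Hspa1b read 8.08, 9.34 and 8.97 in males 1 to 3 and 8.04, 8.42 and 8.06 in females, an SD of 0.55 and 2.45-fold, and Hspa1a read 8.06, 8.86 and 8.98 in males and 7.93, 8.22 and 8.11 in females. Males 2 and 3 were highest for both, and the sexes overlapped because male 1 lay among the females. The cochaperone Dnajb1 had 8.25 and 8.46 in males 2 and 3 against 7.82 to 8.004 elsewhere. The other members of the list of 19 were narrower, the widest of them being Hspb1 with an SD of 0.19. The constitutive Hspa8 stood at 12.46 ± 0.058, Calr at 11.18 ± 0.026 and the median SD of the list was 0.089. The list mean, with Hspa1a and Hspa1b in it, was 8.84 and 8.86 in males 2 and 3 against 8.63 to 8.73 elsewhere. In the knockout arrays the SDs of Hspa1b and Hspa1a were 0.37 and 0.32.

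Hspa1a and Hspa1b are near-identical copies, so their probes may read each other's RNA and 2 rows may not be 2 measurements. Their promoters are shown because both genes ran together over the 6 animals, and because the sequences show how alike the copies are. The stretches run from 250 bases before to 50 after the start of each gene in RefSeq, assembly GRCm38.p6, at chr17:34972107-34972406 and chr17:34959189-34959488, both on the minus strand and printed 5′ to 3′. Capitals mark GAANNTTC, the facing pair of units bound by heat shock factor, which reads the same on both strands.
Hspa1a: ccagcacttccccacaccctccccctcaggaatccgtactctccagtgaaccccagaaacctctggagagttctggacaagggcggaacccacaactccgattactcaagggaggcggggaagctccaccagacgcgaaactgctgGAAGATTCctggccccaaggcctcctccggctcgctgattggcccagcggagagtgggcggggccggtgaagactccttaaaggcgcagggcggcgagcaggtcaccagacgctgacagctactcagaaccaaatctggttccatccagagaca
Hspa1b: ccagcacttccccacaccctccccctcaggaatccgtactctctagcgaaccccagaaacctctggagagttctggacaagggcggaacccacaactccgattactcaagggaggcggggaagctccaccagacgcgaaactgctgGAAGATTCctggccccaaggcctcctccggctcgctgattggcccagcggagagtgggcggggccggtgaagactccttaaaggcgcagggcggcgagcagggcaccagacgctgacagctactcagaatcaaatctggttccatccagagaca
Of 300 bases 296 were identical (98.7%), and the differences were C44T, T47C, T249G and C276T, with the Hspa1a base first and positions counted from 1 at the 5′ end. The pair of units begins at base -104 from the start in both. It occurs in 7.86% of the 32851 promoters of the table, and counted by gene in 6 of the 16 chaperone genes with a sequence, beside 6.82% of genes above background.

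Immediate early genes, which neurons switch on within minutes of activity, varied moderately. Of 31 measured, 28 were above background, and 7 of the 28 exceeded an SD of 0.175, which 656 of 13105 genes above background exceeded. Nr4a1, an orphan nuclear receptor, read 10.66, 10.58 and 10.13 in males and 9.85, 10.38 and 9.90 in females, an SD of 0.34. Npas4, a neuron-specific transcription factor, read 7.79, 7.83 and 7.41 in males and 7.32, 8.21 and 7.56 in females, an SD of 0.32. Nr4a2 had an SD of 0.27, with 9.51 and 9.49 in females 1 and 3 and 9.81 to 10.11 in the others. For each of these 3 genes males 1 and 2 and female 2 were the 3 highest animals, and the sexes overlapped. Dusp5, the brightest of the list, stayed at 10.50 ± 0.054. Circadian clock genes, which cycle over the day, were narrower: the median SD of 16 genes was 0.080, with Nr1d1 at 10.95 ± 0.10, Per1 at 10.22 ± 0.071 and Dbp at 9.25 ± 0.12. The widest of them was Ciart, a repressor of the clock, at 8.25 ± 0.21.

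The promoters of the most variable pair of immediate early genes are shown with TGACG on either strand (CGTCA on the strand printed) in capitals, the short form of the cyclic AMP response element TGACGTCA bound by CREB. They are taken from the same table, Nr4a1 at chr15:101266596-101266895 on the plus strand and Npas4 at chr19:4989922-4990221 on the minus strand.
Nr4a1: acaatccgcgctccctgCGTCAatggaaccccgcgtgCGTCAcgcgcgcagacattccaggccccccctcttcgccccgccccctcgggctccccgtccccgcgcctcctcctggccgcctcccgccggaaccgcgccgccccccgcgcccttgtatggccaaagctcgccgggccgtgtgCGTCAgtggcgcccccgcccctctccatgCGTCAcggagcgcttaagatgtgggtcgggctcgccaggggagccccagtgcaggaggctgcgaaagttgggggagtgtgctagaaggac
Npas4: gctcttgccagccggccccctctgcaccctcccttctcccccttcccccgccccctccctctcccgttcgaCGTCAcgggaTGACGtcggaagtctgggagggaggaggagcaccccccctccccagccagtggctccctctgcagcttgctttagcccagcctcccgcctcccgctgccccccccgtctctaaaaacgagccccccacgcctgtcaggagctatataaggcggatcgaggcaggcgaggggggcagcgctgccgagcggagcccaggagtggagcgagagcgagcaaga
Nr4a1 holds 4 copies, beginning at bases -233, -213, -69 and -40, and Npas4 holds 2, at -179 and -169. Among immediate early genes with a promoter sequence, 17 of 24 hold TGACG and 6 hold 3 or more copies, against 34.4% and 2.31% of genes above background. The full TGACGTCA was found in 3 of the 24 and in 3.44% of genes above background. The TATA box TATAAA was found in 3 of 14 brightest genes and 4 of 15 most variable genes with a sequence, beside 8.98% of genes above background. TAATCC, the motif bound by OTX factors, was in 1 of 15 choroid plexus genes and in 6.88% of genes above background. Of all 32851 promoters, TATAAA was in 13.6%, TGACG in 20.8%, TGACGTCA in 1.79% and TAATCC in 7.06%. A match describes letters in these 300 bases and is not evidence of binding.

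The interferon-response list had its highest means in females 1 and 2, 7.62 and 7.71 against 7.33 to 7.46 in the other animals. Oasl2 read 7.45, 7.34 and 7.39 in males and 8.04, 8.12 and 7.64 in females. Ifit1 read 7.42, 7.03 and 7.26 in males and 7.60, 7.96 and 7.72 in females. For both the sexes did not overlap, which also held for 10.9% of all genes. Ifi27 read 8.28, 7.91 and 8.07 in males and 8.58, 8.40 and 7.68 in females, and there female 3 was lowest. Of 19 list genes 14 were above background, and 9 of the 14 exceeded an SD of 0.175, as did 656 of all 13105 genes above background. Female 2 was the highest animal for 12 of the 19, and for 10.3% of genes above background. Male 2 was the lowest for 10 of the 19, and for 11.5% of genes above background. The 19 include genes below background, which these shares leave out. B2m, the light chain of class I antigen-presenting molecules, was bright at 12.63 ± 0.15.

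Males and females were compared within the 6 wild-type animals by limma over all 22180 genes with Benjamini-Hochberg adjustment. At an adjusted p of 0.05, 3 genes were lower in females (0.0135% of genes) and 0 were higher (0%), while 1102 had an unadjusted p under 0.05. The 3 genes lie on the Y chromosome. Eif2s3y, a translation factor subunit, read 8.87, 9.18 and 8.96 in males and 4.50, 4.48 and 4.18 in females, a difference of -4.62 (SE 0.12, limma adjusted p = 5.98e-06). Uty and Kdm5d, both histone demethylase family members, differed by -3.82 (SE 0.12, limma adjusted p = 2.26e-05) and -4.46 (SE 0.18, limma adjusted p = 9.75e-05). In the knockout arrays all 3 were called again, among 7. Values of the sexes did not overlap for 2412 genes, 10.9% of all, so a lack of overlap in a single gene is common in these arrays.

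Xist, the RNA that silences one X chromosome of female cells, did not pass in the test over all 22180 genes. It read 6.17, 5.75 and 8.71 in males 1 to 3 and 11.88, 12.01 and 12.23 in females, a difference of 5.17 (SE 0.67, limma adjusted p = 0.210). Male 3 had 9.87% of the mean female intensity, against 1.70% and 1.27% in males 1 and 2. Its Y-linked genes were at the male level, with 8.96 for Eif2s3y, 8.56 for Kdm5d and 8.88 for Uty. Without male 3 the Xist difference was 6.08 with a limma adjusted p of 3.47e-05. In the knockout arrays Xist differed by 5.85 (SE 0.15, limma adjusted p = 6.37e-06).

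Further candidates for higher levels in females did not pass either. Kdm6a, the X-linked counterpart of Uty that escapes X inactivation, read 9.73, 9.78 and 9.76 in males and 10.19, 10.28 and 10.22 in females, a difference of 0.48 (SE 0.062, limma adjusted p = 0.210). Zbtb16, a zinc finger protein induced by glucocorticoids, read 7.65, 7.61 and 7.62 in males and 8.26, 8.10 and 8.24 in females, a difference of 0.58 (SE 0.069, limma adjusted p = 0.201). For both the sexes were apart, as for 10.9% of all genes, and the spread within each sex was small. In the knockout arrays Zbtb16 differed by 0.35 (SE 0.25, limma adjusted p = 0.832) and Kdm6a by 0.44 (SE 0.069, limma adjusted p = 0.378). When only the 13105 genes above background were tested, Xist, Zbtb16 and Kdm6a passed, with limma adjusted p of 0.0183, 0.0136 and 0.0202. In a fit over all 12 arrays Xist and Kdm6a passed, with limma adjusted p of 0.00577 and 0.0189, and Zbtb16 did not, with 0.943. The 15 glucocorticoid-responsive genes of the list, Zbtb16 included, had a median SD of 0.12 over the 6 animals, and the brightest, the metallothionein Mt2, stood at 11.20 ± 0.044.

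**Figure D5:**
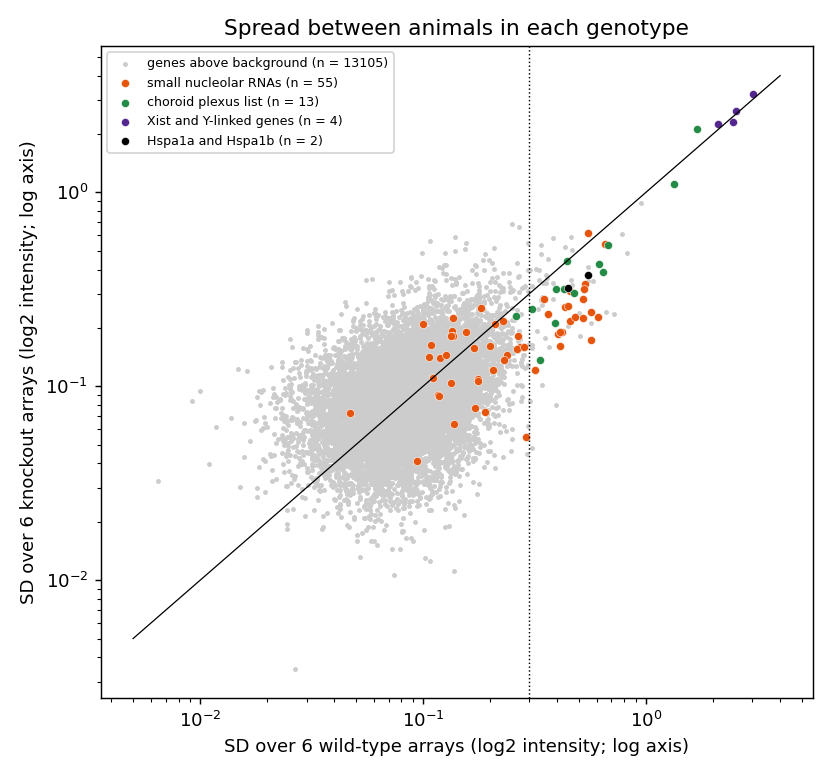
SD over the 6 wild-type arrays against SD over the 6 knockout arrays for 13105 genes above background, both axes logarithmic; the diagonal marks equal SD and the dotted line an SD of 0.3. Xist and Y-linked genes, Ttr and Kl are wide in both sets. Most small nucleolar RNAs past the dotted line lie below the diagonal, but that line selects genes by their wild-type SD. Of all 55 small nucleolar RNAs, a list added after the values were seen, 42 had the larger SD in wild type, beside 47.7% of genes above background. Without male 2 their median wild-type SD was 0.172, against a knockout median of 0.181.

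The widest genes of the groups described above were read again in the knockout animals. They were chosen by a large wild-type SD, so a smaller knockout SD is partly fixed by that choice. Some groups hold only 2 or 3 genes, and a difference between groups was not tested. Of the 30 most variable genes, 12 were also among the 30 most variable in the knockout arrays. The 12 wide choroid plexus genes had a median knockout SD of 0.35, the 3 interferon genes 0.40 and the 2 chaperones 0.35. The 28 wide small RNAs had 0.24, with 6 of 28 reaching 0.3, and the 2 immediate early genes had 0.23, with 0 of 2. For comparison, all genes above background had a median knockout SD of 0.089.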

How the data were processed

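Total RNA of 12 cerebella was measured on 1 Affymetrix whole-transcript array each, and 6 wild-type arrays are described. The authors deposited each value as a linear intensity; per the labels it is an RMA value of a core-exon analysis made in Expression Console. The submitters' processing notes add Transcriptome Analysis Console 3.0. The genome build behind the array's annotation is not given in the sources used here. RMA equalises the arrays, so a change shared by most genes would not show.

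Here log2 of each deposited intensity was taken, with no pseudocount. Of 41345 rows, GEO's platform annotation named 1 gene for 23521, several for 1814 and none for 16010. Rows with 1 gene were kept, and the row with the highest wild-type mean was used for the 1082 genes with several, giving 22180 genes. Gene IDs of 21991 matched RefSeq (GRCm38.p6). Of 478 list entries 425 were measured; 24 of the other 53 lie only in rows shared by several genes. Spread is the SD over 6 arrays, with its chi-square interval. Sex was tested with limma 3.58.1 (lmFit, eBayes, two-sided, Benjamini-Hochberg) in R 4.3.3, tested on simulated data beforehand; other steps used Python 3.11.15. The number of arrays limits the precision. Each p-value sets a difference between the sexes against the spread within the sexes, with variances moderated by eBayes.

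Named genes were the 4 markers, the 30 brightest, the 30 most variable above background and the 10 steadiest. The leading genes of the sex test and the brightest and widest 3 of each list were named too. So were the 10 most like Ttr among genes above background with an SD of at least 0.3. Predicted and small RNA genes were not named by rank unless said. Members and lists were chosen with earlier results of these data known, and the mitochondrial and small nucleolar RNA lists and the motifs TGACG, GAANNTTC and TAATCC were added after the values were seen. Alternatives were other summaries of rows, quantile normalization, another background, other measures of spread, other variance fits and leaving out each array.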

Additional observations from a re-analysis of the deposited data

Results flagged for a closer look

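Each gene named above and each gene list mean was checked for 1 animal far from the other 5, by the gap to the nearest value over the whole range, set against Dixon's 95% critical value for 6 values. Of 149 checked, 7 were marked. Chance alone would mark about 1 in 20 groups, so the number marked is no excess. Many genes were named for their spread, and list means share members with them, so the checks are not independent. Of the 7 marked, 3 were non-coding RNA genes in male 2. Rny1 had 9.37, the nearest other animal being at 10.58, Vaultrc5 had 5.88 against 7.20, and Gm26504 had 12.71 against 13.15. The membrane glycoprotein Gpm6a was 13.07 in male 2 against 12.98. Foxp2 was 6.60 in female 1 against 6.88, the clock gene Per1 was 10.36 in female 2 against 10.22, and the clock repressor Ciart was 7.82 in female 3 against 8.29.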

How the results depend on the processing

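The 30 brightest genes kept 26 to 30 members under each alternative run, and the number of genes above background ranged from 9144 to 13172. The 30 most variable genes depended more on the choices: 13 were shared when the 99th percentile of receptor genes, 7.50, was the background, 16 with no filter on dim genes (14 of that list lay below background), 19 with the median absolute deviation, 24 with the pooled SD within sex and 26 with the coefficient of variation. Leaving out 1 array shared 19 to 30, the fewest without male 2. Genes called between the sexes numbered 3 in the main fit, 5 in a fit over all 12 arrays, 6 with an intensity trend, 6 among genes above background only, and 3 to 4 when 1 array was left out, 4 without male 3. Under each of these settings Eif2s3y, Uty and Kdm5d stayed called. Leaving out 1 array was also applied to the small nucleolar RNAs and choroid plexus genes with an SD of at least 0.3, an alternative chosen after seeing the data: these numbered 14 to 24 and 9 to 12. Other causes of these shifts were not tested. No paired analysis was possible because the labels give the arrays no replicate numbers shared between groups. With 3 animals per sex, a spread estimated from 6 arrays is imprecise, and genes near background have compressed differences.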
